A study of Sus scrofa with 12 samples.

Results

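The genes described here encode the enzymes of glycolysis, the enzymes and transporters around it, and the hypoxia-inducible factors (HIF) with genes they are known to induce. They are 38 genes chosen by name. Of these, 32 had a pig Ensembl identifier that maps to the symbol, among 21153 genes in the count table, and 6 had none (SLC2A1, SLC2A3, SLC16A1, LDHB, VHL and BNIP3), so no value is given for them. In each comparison 28 of the 32 passed a filter of at least 1 count per 1000000 reads counted on genes (CPM) in at least 3 of 6 libraries and were tested. The other 4 (TPI1, ENO2, EGLN3 and ANKRD37) are given as counts.

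Glycolysis splits glucose into pyruvate, and lactate dehydrogenase turns pyruvate into lactate, while pyruvate dehydrogenase passes it on to the mitochondria unless pyruvate dehydrogenase kinases (PDKs) switch it off. Endothelial cells (ECs) are known to draw most of their ATP from glycolysis, and in them laminar flow acting through the transcription factor KLF2 is known to lower PFKFB3, the enzyme that makes an activator of phosphofructokinase. HIF1A and EPAS1 are the oxygen-regulated subunits of HIF. With oxygen present, the prolyl hydroxylases EGLN1 and EGLN3 mark them for destruction, and when they persist they pair with ARNT and induce most glycolytic genes as well as PDK1, ADM, NDRG1 and EGLN3 itself.

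RNA came from primary arterial ECs of 3 pigs, aged 8 months according to the methods and taken at a slaughterhouse, that were grown on gelatin in DMEM with 10% fetal calf serum and heparin. The labels call the cells aortic and the methods coronary. Laminar wall shear stress (WSS) was applied for 48 h. Each donor gave 1 culture at 2 dyne/cm2 (low), 1 at 80 dyne/cm2 (supra-high) and 2 at 30 dyne/cm2 (physiological), which made 12 libraries in 4 groups of 3. The cultures at 30 dyne/cm2 form set 1, compared here with 2 dyne/cm2, and set 2, compared with 80 dyne/cm2. The labels do not say which set belongs to which comparison, and they name another flow slide and seeding density for 80 dyne/cm2 and its control than for 2 dyne/cm2 and its control, where the methods name a single slide. An effect of the slide and a difference between the sets therefore cannot be told apart. No cells were exposed to altered oxygen, and neither lactate nor glucose was analysed here.

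Libraries held 29606854 to 41058902 reads counted on genes. Of 11 endothelial markers 8 had an identifier, and their summed level was 4850.3 to 6459 CPM under low WSS and 6582 to 8639 CPM in the other groups. Markers of smooth muscle, pericytes or fibroblasts (12 of 12 with an identifier) summed to 83.7 to 154 CPM under low WSS, 80.9 to 97.3 in set 1, 61.7 to 87.5 in set 2 and 46.7 to 77.9 under supra-high WSS, with DES and RGS5 at 3 counts or fewer in every library. In the edgeR test described below, 2 of 5 tested markers of this list were up-regulated under low WSS, as were 13.4% of all genes. Their median log2 fold change was 1.09 over the 5. Without the donor in the model 0 of the 5 passed. Under supra-high WSS 0 of 4 passed, against 8.40% of all genes. Leukocyte markers (7 of 7) summed to 31.9 CPM or less, with PTPRC and CD3E at 3 counts or fewer. The cell cycle markers (5 of 6) summed to 161 to 244 CPM under low WSS, 229 to 459 in set 1, 277 to 339 in set 2 and 135 to 428 under supra-high WSS. The part of these marker levels in the results was not tested. In such bulk RNA, fewer cells of a type and less RNA per cell cannot be told apart. KLF2, which laminar flow is known to induce, served as a check of the flow labels: it stood at 2.71, 12.4 and 8.28 CPM under low WSS (donors 1, 2 and 3, in this order throughout), at 150.4, 111 and 167 CPM in set 1, at 183, 117 and 160.4 CPM in set 2 and at 231, 175 and 199 CPM under supra-high WSS.

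Under low WSS, HK1, ALDOC, ENO1, PKM and LDHA were down-regulated among the glycolytic enzymes, together with HIF1A and NDRG1. Of these enzymes, PKM and LDHA fell by more than a factor of 2. PDK4 and the vasodilator peptide gene ADM were up-regulated 11.7-fold and 8.85-fold, and PDK1 and PFKFB2 by less than a factor of 2. The calls of ALDOC, ENO1, HIF1A, PDK1 and PFKFB2 did not hold in every alternative fit described below. Under supra-high WSS, LDHA, GAPDH, ENO1, ALDOC and NDRG1 were up-regulated by less than a factor of 2 and PDK1 was down-regulated. A gene is called here when its adjusted p is under 0.05 in edgeR's quasi-likelihood test with the donor as a block, adjusted by the Benjamini-Hochberg method over all genes tested. Under low WSS, 11 of 28 members were called (39.3%), 4 up and 7 down, against 25.8% of all 11226 genes tested (13.4% up and 12.4% down). Under supra-high WSS, 6 of 28 were called (21.4%), 5 up and 1 down, against 8.40% of 11187 genes (4.36% up and 4.04% down). The study's additional threshold of a 2-fold change was passed by 5 members under low WSS (9.60% of all genes) and by 0 under supra-high WSS (2.20% of all genes).

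The calls under supra-high WSS rest on the pairing of cultures by donor. When the donor was left out of the model 0 members and 0 of all genes passed there. An unadjusted p under 0.05 was then found for 11 members and for 929 of all 11187 genes. DESeq2 without the donor called 4 members and 230 of all 11187 genes. Again 0 members passed with set 1 as the control (26 of 11128 genes) or without donor 3 (184 of 11276 genes). Without donor 1, 15 of 29 tested members passed (2080 of 11353 genes). Under low WSS, 7 members passed without the donor in the model (LDHA, PKM, ENO1, HK1, NDRG1, PDK4 and ADM), as did 11.1% of all genes. Without donor 1, 6 members passed there (1510 of 11369 genes).

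The median log2 fold change of the 28 tested members was -0.20 under low WSS, where that of all genes was 0.00, and 0.29 under supra-high WSS, where that of all genes was -0.01. Over all 32 members, the median within-donor difference of log2(CPM + 1) was -0.05, -0.15 and -0.28 under low WSS and 0.32, 0.27 and 0.04 under supra-high WSS. The corresponding medians over all genes were 0.00, 0.02 and -0.06, and 0.06, -0.11 and -0.06. In each comparison 22 of the 32 members (68.8%) moved in the same direction in 3 of 3 donors, with 14 lower and 8 higher under low WSS and 15 higher and 7 lower under supra-high WSS. Among all genes 65.5% did so under low WSS and 47.1% under supra-high WSS. With the control sets exchanged, the median member difference of the middle donor was -0.07 in place of -0.15 under low WSS and 0.07 in place of 0.27 under supra-high WSS.

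**Figure D1:**
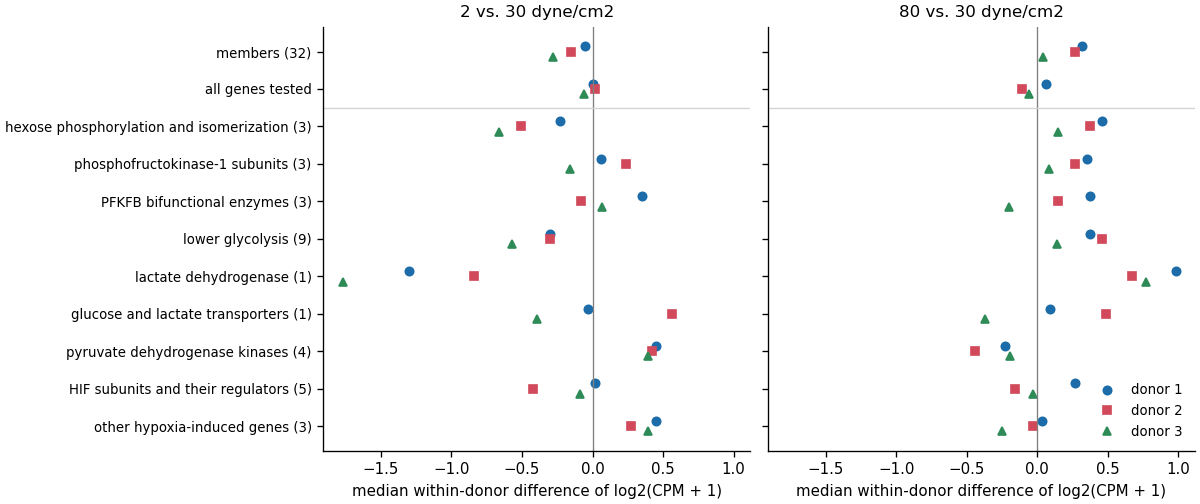
Median within-donor difference of log2(CPM + 1) for all members, all genes tested and the members of each role (number of genes in parentheses), at 2 dyne/cm2 (left) and 80 dyne/cm2 (right) against the set at 30 dyne/cm2 of that comparison, with 1 symbol per donor. Lower glycolysis lies at -0.57 to -0.30 on the left and at 0.14 to 0.46 on the right, and the pyruvate dehydrogenase kinases at 0.39 to 0.45 and -0.44 to -0.19. The kinases did not move as a family. At 2 dyne/cm2 the log2 fold changes were 3.54 for PDK4, 0.91 for PDK1, -0.17 for PDK2 and -0.16 for PDK3. At 80 dyne/cm2 they were -0.92, -0.41, 0.05 and -0.11.

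Glucose enters the pathway when hexokinases phosphorylate it. HK1, the housekeeping hexokinase (ENSSSCG00000010253, chromosome 14, 72383328 to 72460927 on Sscrofa11.1), was present at 415, 432 and 331 CPM under low WSS and at 668, 617 and 693 CPM in set 1. It stood at 505, 539 and 570.0 CPM in set 2 and at 658, 695 and 634 CPM under supra-high WSS. All libraries under low WSS lay below all of set 1, and HK1 was down-regulated (log2 fold change -0.74, SE 0.13, adjusted p = 0.0181). All libraries under supra-high WSS lay above all of set 2, although this difference did not pass the test (0.33, SE 0.10, adjusted p = 0.0903).

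HK2, the inducible hexokinase and a known HIF target, was close to the filter. It was measured at 3.68, 2.84 and 0.661 CPM under low WSS, 3.73, 5.00 and 0.648 in set 1, 1.45, 3.78 and 0.522 in set 2 and 3.76, 4.76 and 0.490 under supra-high WSS. Donor 3 was the lowest in every group, and the groups overlapped. Neither comparison passed the test (-0.30, SE 0.26, adjusted p = 0.415, and 0.68, SE 0.27, adjusted p = 0.161). GPI, which converts glucose 6-phosphate to fructose 6-phosphate, had log2 fold changes of -0.37 (SE 0.11, adjusted p = 0.0749) and 0.38 (SE 0.10, adjusted p = 0.0584).

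The next step, catalysed by phosphofructokinase, is the main point of control of glycolysis. Its subunit genes PFKL, PFKM and PFKP did not pass the test in either comparison, with log2 fold changes of 0.02, 0.37 and 0.06 under low WSS and of 0.31, -0.18 and 0.36 under supra-high WSS. Of these 3 genes, 1 under low WSS and 2 under supra-high WSS had an unadjusted p under 0.05. So had 4773 of all 11226 and 2921 of all 11187 genes. DESeq2 called 0 of the 3 in both comparisons, against 3325 and 1150 of all genes. The PFKFB enzymes make or remove fructose 2,6-bisphosphate, the activator of phosphofructokinase. PFKFB3, the form with the highest kinase activity, showed no uniform direction among donors: 296, 495 and 161 CPM under low WSS against 289.9, 523 and 324 in set 1, and 172, 466 and 237 CPM under supra-high WSS against 130.0, 376 and 272 in set 2. The groups overlapped in both comparisons. Under low WSS donor 3 differed from its control by -1.01 on the log2(CPM + 1) scale, whereas donors 1 and 2 differed by 0.03 and -0.08. The fitted values were -0.33 (SE 0.21, adjusted p = 0.282) and 0.20 (SE 0.12, adjusted p = 0.336), and both turn in sign, to 0.31 and -0.45, when the other set at 30 dyne/cm2 is the control.

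PFKFB2, the heart form of the enzyme (ENSSSCG00000015660, chromosome 9, 67681786 to 67716921), went the other way from HK1. It had 57.1, 73.0 and 66.7 CPM under low WSS and 30.7, 55.3 and 33.8 CPM in set 1, without overlap, and was up-regulated (0.77, SE 0.15, adjusted p = 0.0239). At 80 dyne/cm2 it had 34.9, 47.8 and 37.5 CPM against 48.1, 53.6 and 48.6 CPM in set 2, again without overlap, a log2 fold change of -0.30 (SE 0.11) that did not pass (adjusted p = 0.131). The call under low WSS was lost without the donor in the model and without donor 1 or donor 3 (adjusted p up to 0.0907 over 11 alternatives). PFKFB4 did not pass in either comparison (0.14 and 0.26).

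**Figure D2:**
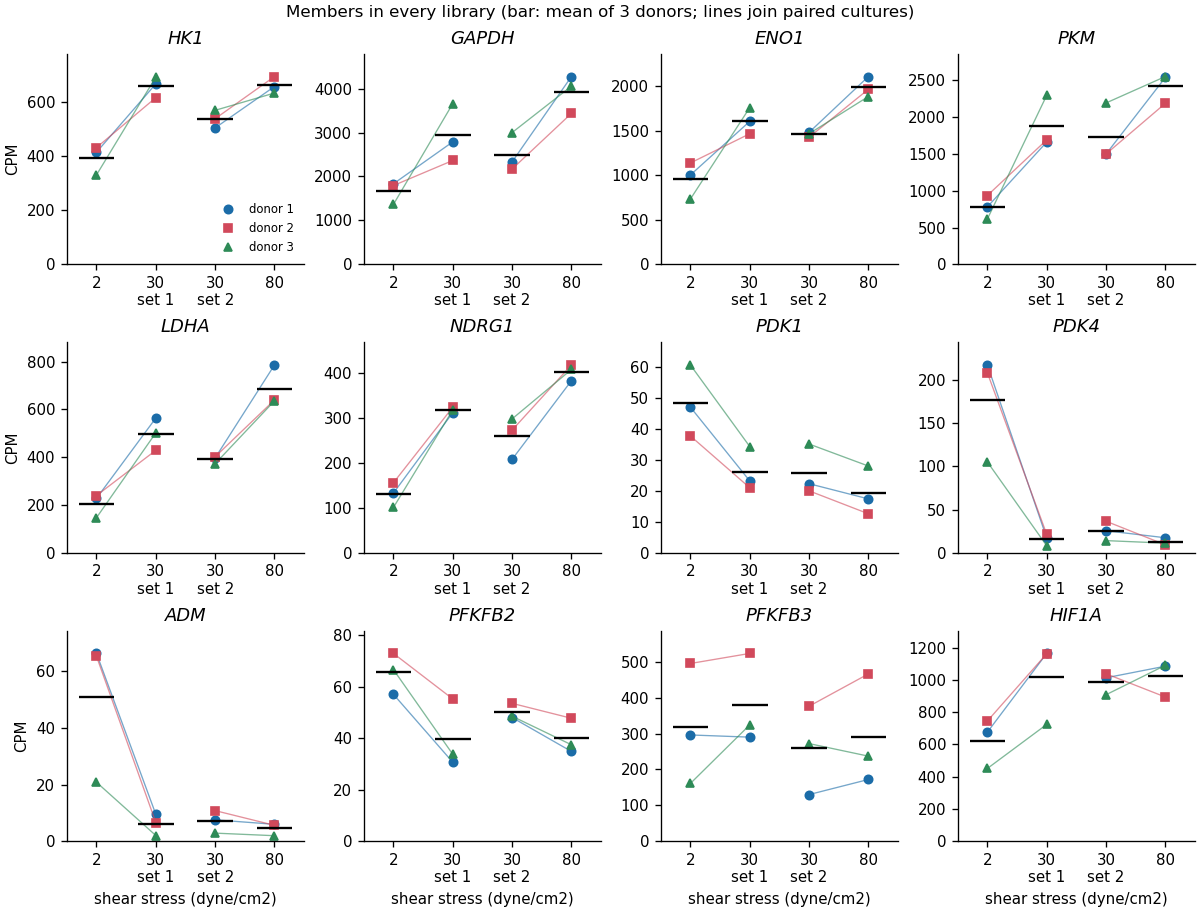
Level in CPM of 12 members in each of the 12 libraries, by WSS in dyne/cm2 and set. Symbols mark donors, thin lines join the cultures of a donor within a comparison and the bar is the mean of 3 donors. For PKM, LDHA and NDRG1 every donor was lower at 2 than in set 1 and higher at 80 than in set 2, PDK4 and ADM were high at 2 dyne/cm2 in all 3 donors, and PFKFB3 overlapped between groups.

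The lower part of glycolysis runs from aldolase to pyruvate kinase and yields the ATP of the pathway. Of its 7 tested genes, 3 were down-regulated under low WSS (ALDOC, ENO1 and PKM), as were 12.4% of all genes, and 3 were up-regulated under supra-high WSS (ALDOC, GAPDH and ENO1), as were 4.36% of all genes. The median of the 7 log2 fold changes was -0.41 and 0.48.

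PKM, which encodes the pyruvate kinase of these cells (ENSSSCG00000001930, chromosome 7, 60971807 to 61032780), was at 781, 935 and 616 CPM under low WSS and at 1661, 1691 and 2295 CPM in set 1. In all 3 donors the level under low WSS was well below any library at 30 dyne/cm2, and PKM was down-regulated 2.40-fold (-1.26, SE 0.22, adjusted p = 0.0186). At 80 dyne/cm2 it was at 2538, 2187 and 2551 CPM, against 1498, 1499 and 2192 CPM in set 2. These groups overlapped through donor 3 of set 2, and the increase of 0.54 (SE 0.13) stayed just outside the threshold (adjusted p = 0.0518).

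ENO1, the ubiquitous enolase (ENSSSCG00000022343, chromosome 6, 69385879 to 69401664), was at 1003, 1138 and 733 CPM under low WSS and 1605, 1466 and 1759 CPM in set 1. It was at 1481, 1427 and 1466 CPM in set 2 and 2108, 1965 and 1884 CPM under supra-high WSS. The groups did not overlap in either comparison. ENO1 was down-regulated under low WSS (-0.75, SE 0.19, adjusted p = 0.0419) and up-regulated under supra-high WSS (0.48, SE 0.11, adjusted p = 0.0466). Both values are near the threshold. Of 11 alternatives, the former call was lost in 3, when any donor was left out (adjusted p up to 0.113), and the latter in 6 (adjusted p up to 0.418).

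GAPDH, often taken as a reference gene (ENSSSCG00000000694, chromosome 5, 64129678 to 64135194), was at 1834, 1794 and 1365 CPM under low WSS and at 2788, 2364 and 3658 CPM in set 1. It reached 4274, 3436 and 4055 CPM under supra-high WSS against 2332, 2169 and 2999 CPM in set 2. The 3 libraries under low WSS were the lowest of the 12 and the 3 under supra-high WSS lay above all of set 2. It was up-regulated under supra-high WSS (0.69, SE 0.14, adjusted p = 0.0252), and the difference under low WSS did not pass (-0.79, SE 0.22, adjusted p = 0.0558). The call under supra-high WSS was lost in 5 of 11 alternatives, among them without the donor in the model, against set 1 and without donor 2 or donor 3 (adjusted p up to 0.437).

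ALDOC, the brain form of aldolase (ENSSSCG00000017759, chromosome 12, 44823376 to 44827273), was at 32.1, 38.2 and 21.4 CPM under low WSS, 45.3, 52.4 and 26.6 in set 1, 38.3, 40.4 and 36.7 in set 2 and 61.1, 68.0 and 40.4 under supra-high WSS. The groups overlapped, but each donor was lower under low and higher under supra-high WSS than its control. The changes were -0.41 (SE 0.10, adjusted p = 0.0371) and 0.56 (SE 0.13, adjusted p = 0.0404), and the adjusted p rose to as much as 0.346 and 0.538 over 11 alternatives. ALDOA, PGK1 and PGAM1, the ubiquitous forms of their enzymes, did not pass in either comparison (-0.39, -0.23 and -0.30 under low WSS; 0.34, 0.05 and 0.35 under supra-high WSS). Reads that mapped to more than 1 place had been discarded, so genes with near-identical copies elsewhere in the genome, as GAPDH, PGK1, ENO1, PGAM1, LDHA and TPI1 may have, are uncertain in level. TPI1 (triosephosphate isomerase) had 14 to 39 counts per library, and the part of discarded reads in this was not tested.

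LDHA encodes the lactate dehydrogenase subunit that favours the reduction of pyruvate to lactate (ENSSSCG00000013366, chromosome 2, 40814163 to 40827284). It was measured at 228, 239.6 and 147 CPM under low WSS and at 564, 429 and 502 CPM in set 1. Set 2 had 397, 402 and 373 CPM and the libraries under supra-high WSS had 786, 639.6 and 636 CPM. The groups were fully separated in both comparisons, in opposite directions. LDHA was down-regulated 2.44-fold by low WSS (-1.29, SE 0.18, adjusted p = 0.0119) and up-regulated 1.79-fold by supra-high WSS (0.84, SE 0.10, adjusted p = 0.00486). The call under low WSS held in 11 of 11 alternatives (adjusted p up to 0.0207). That under supra-high WSS was lost in 3 of 11, namely without the donor in the model, against set 1 and without donor 3 (adjusted p up to 0.369). SLC16A3, an exporter of lactate, did not pass (0.06 and 0.11).

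Added over the 16 enzymes from hexokinase to lactate dehydrogenase that have an identifier, the transcripts made up 6605, 7163 and 5196 CPM under low WSS and 10023, 9471 and 11782 CPM in set 1. The sums were 8636, 8852 and 10226 CPM in set 2 and 13387, 12401 and 12639 CPM under supra-high WSS. Every library under low WSS was below and every library under supra-high WSS above all libraries at 30 dyne/cm2. The sum mostly follows the genes with the most reads. In donor 1 under supra-high WSS, GAPDH, PKM and ENO1 gave 4274, 2538 and 2108 of the 13387 CPM. The sum therefore does not show a shift of each enzyme. HK2, GPI, PFKL, PFKM, PFKP, ALDOA, PGK1 and PGAM1 passed the test in neither comparison. The share of reads that fibronectin (FN1) took moved in the opposite order, from 5.23% to 11.1% under low WSS, 2.47% to 3.71% in set 1 and 3.70% to 5.98% in set 2, to 0.951% to 1.15% under supra-high WSS. With the reads of FN1 and THBS1 left out of the library size, an alternative chosen after seeing the data, the median member difference was -0.11 under low WSS and 0.22 under supra-high WSS, in place of -0.15 and 0.27 (middle donor).

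**Figure D3:**
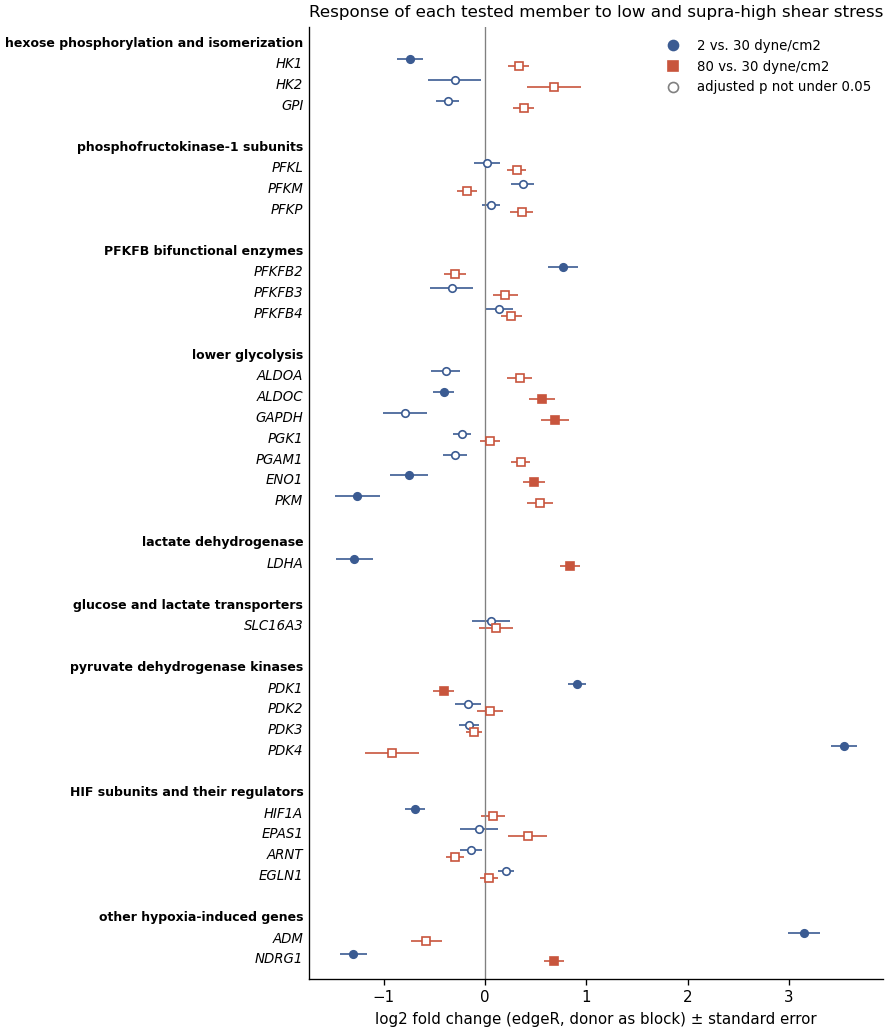
Log2 fold change with its standard error (edgeR, donor as a block) of each of the 28 tested members by role, at 2 dyne/cm2 (circles) and 80 dyne/cm2 (squares) against 30 dyne/cm2. Filled symbols have an adjusted p under 0.05. Lower glycolysis and LDHA lie left of 0 at 2 dyne/cm2 and right of 0 at 80 dyne/cm2, and PDK4 (3.54) and ADM (3.15) lie far to the right at 2 dyne/cm2.

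The PDKs phosphorylate and so inhibit pyruvate dehydrogenase, and PDK4 is best known as the form induced by fasting and fatty acids. PDK4 (ENSSSCG00000015334, chromosome 9, 75246956 to 75260134) stood at 217, 208 and 105 CPM under low WSS and at 17.3, 21.4 and 8.19 CPM in set 1. Its level in every culture under low WSS exceeded that in every other culture, and PDK4 had the largest change of the 28 tested members, an 11.7-fold up-regulation (3.54, SE 0.13, adjusted p = 0.00187). At 80 dyne/cm2 it stood at 17.4, 9.28 and 11.2 CPM against 25.5, 36.5 and 14.1 CPM in set 2. The donors differed by -0.53, -1.87 and -0.31 on the log2(CPM + 1) scale, but the groups overlapped and the difference of -0.92 (SE 0.27) did not pass (adjusted p = 0.0826).

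PDK1, a classical HIF1A target (ENSSSCG00000015958, chromosome 15, 78608394 to 78650958), was at 47.0, 37.7 and 60.6 CPM under low WSS against 23.2, 21.0 and 34.3 CPM in set 1. It was at 17.4, 12.6 and 28.0 CPM under supra-high WSS against 22.3, 20.0 and 35.1 CPM in set 2. Donor 3 had the highest and donor 2 the lowest level in every group, and within donors PDK1 was higher at 2 and lower under supra-high WSS. It was up-regulated by low WSS (0.91, SE 0.09, adjusted p = 0.00641) and down-regulated by supra-high WSS (-0.41, SE 0.10, adjusted p = 0.0485). Of 11 alternatives, the former was lost in 1 (without the donor in the model, adjusted p = 0.0863, the highest) and the latter in 6 (adjusted p up to 0.857). PDK2 and PDK3 did not pass in either comparison (-0.17 and -0.16 under low WSS; 0.05 and -0.11 under supra-high WSS).

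Of the HIF subunits, HIF1A (ENSSSCG00000005096, chromosome 1, 190625436 to 190673926) was lower under low WSS in each donor, with 676, 745 and 451 CPM against 1164, 1162 and 724 CPM in set 1. The groups overlapped, because donor 3 was the lowest in both, and the transcript was down-regulated (-0.69, SE 0.10, adjusted p = 0.0140). The call was lost without the donor in the model, without donor 1 and without donor 2 (adjusted p up to 0.111 over 11 alternatives). HIF1A was at 1085, 894 and 1090.4 CPM under supra-high WSS against 1013, 1038 and 908 CPM in set 2, which gave 0.08 (SE 0.12, adjusted p = 0.711). HIF1A is regulated mainly through the stability of its protein, which was not analysed here.

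EPAS1 encodes HIF-2α, the HIF subunit that is abundant in endothelium. It was at 642, 1066 and 489 CPM under low WSS, 633, 1518 and 407 in set 1, 525, 1053 and 596 in set 2 and 647, 1959.8 and 583 under supra-high WSS. Donor 2 was far above the others in every group, and donors did not share a direction in either comparison (-0.06, SE 0.19, adjusted p = 0.832, and 0.42, SE 0.19, adjusted p = 0.204). ARNT had -0.14 and -0.30, and EGLN1 0.21 and 0.04, and neither gene passed.

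EGLN3, whose transcript HIF strongly induces, was close to undetected under low WSS, with 0, 4 and 0 counts against 35, 17 and 16 counts in set 1. It had 30, 41 and 40 counts under supra-high WSS against 11, 11 and 10 in set 2, so that neither pair of groups overlapped. The gene missed the filter. Fitted without a filter it had log2 fold changes of -3.86 (SE 0.95, adjusted p = 0.0462) and 1.86 (SE 0.35, adjusted p = 0.00560), values that rest on few reads. ANKRD37, another gene known to respond to HIF, had 21, 19 and 26 counts under low WSS against 5, 12 and 13 in set 1, and 17, 19 and 9 under supra-high WSS against 16, 19 and 20. Without a filter its difference did not pass (1.27, SE 0.40, adjusted p = 0.0902, and -0.24, SE 0.38, adjusted p = 0.772). ENO2, the neuronal enolase, had 8 to 28 counts per library.

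Among the remaining hypoxia-induced members, ADM and NDRG1 moved in opposite directions. ADM encodes adrenomedullin, a vasodilator peptide that ECs secrete (ENSSSCG00000013408, chromosome 2, 49229223 to 49231521). It was at 66.2, 65.2 and 20.8 CPM under low WSS and at 9.50, 6.61 and 2.03 CPM in set 1, with 7.54, 10.8 and 2.87 CPM in set 2 and 5.98, 5.62 and 1.96 CPM under supra-high WSS. Donor 3 was the lowest in every group, and even its level under low WSS was above every library of the other groups. ADM was up-regulated 8.85-fold by low WSS (3.15, SE 0.16, adjusted p = 0.00293), and its decrease under supra-high WSS did not pass (-0.58, SE 0.15, adjusted p = 0.0600).

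NDRG1, a cytoplasmic protein of stress and hypoxia responses (ENSSSCG00000005944, chromosome 4, 8014445 to 8069335), was at 133, 156 and 101 CPM under low WSS and at 312, 324 and 318 CPM in set 1. It was at 208, 273 and 298 CPM in set 2 and at 383, 418 and 408 CPM under supra-high WSS. The groups were separated in both comparisons, as for LDHA. NDRG1 was down-regulated 2.46-fold by low WSS (-1.30, SE 0.13, adjusted p = 0.00641) and up-regulated 1.60-fold by supra-high WSS (0.68, SE 0.10, adjusted p = 0.00923). Under low WSS the calls of PDK4, ADM, NDRG1 and PKM held in 11 of 11 alternatives, and under supra-high WSS that of NDRG1 was lost in the same 3 as that of LDHA.

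Whether members responded differently to low and supra-high WSS was tested in 1 model over 12 libraries, as the response under low WSS minus that under supra-high WSS. The responses of 16 of 28 members differed (57.1%), against 37.1% of all 11568 genes. Relative to supra-high WSS, 11 were lower under low WSS (17.9% of all genes) and 5 were higher (19.3%). The differences were -2.12 for LDHA (SE 0.19, adjusted p = 8.64e-05), -1.96 for NDRG1, -1.77 for PKM, -1.46 for GAPDH, -1.22 for ENO1, -1.07 for HK1, -0.95 for ALDOC, -0.78 for HIF1A, -0.74 for GPI, -0.73 for ALDOA and -0.64 for PGAM1. In the other direction they were 4.43 for PDK4 (SE 0.37, adjusted p = 6.96e-05), 3.73 for ADM, 1.33 for PDK1, 1.08 for PFKFB2 and 0.56 for PFKM. With the control sets exchanged, 9 of these 16 members passed (LDHA, NDRG1, PKM, GAPDH, ENO1, ALDOC, PDK4, ADM and PDK1). HK1, GPI, ALDOA, PGAM1, PFKM, HIF1A and PFKFB2 then lost their calls. The difference was -0.70 for HIF1A (adjusted p = 0.0542) and 0.39 for PFKFB2 (adjusted p = 0.180). Without the donor in the model 12 of these members passed, as did 15.1% of all genes, and ALDOC, PDK1, HIF1A and PFKM did not.

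Of the 28 tested members 21 had fold changes of opposite sign in the comparisons (75.0%), as had 65.3% of all 11042 genes tested in both. In 16 of the 21 the level was lower under low and higher under supra-high WSS, and in 5 it was the reverse. Of 7 with the same sign, 5 were higher and 2 lower in both, and no member of these 7 was called in either comparison. The 5 members called in both comparisons (ALDOC, ENO1, LDHA, PDK1 and NDRG1) had opposite signs. This was also true of 548 of the 568 genes called in both.

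**Figure D4:**
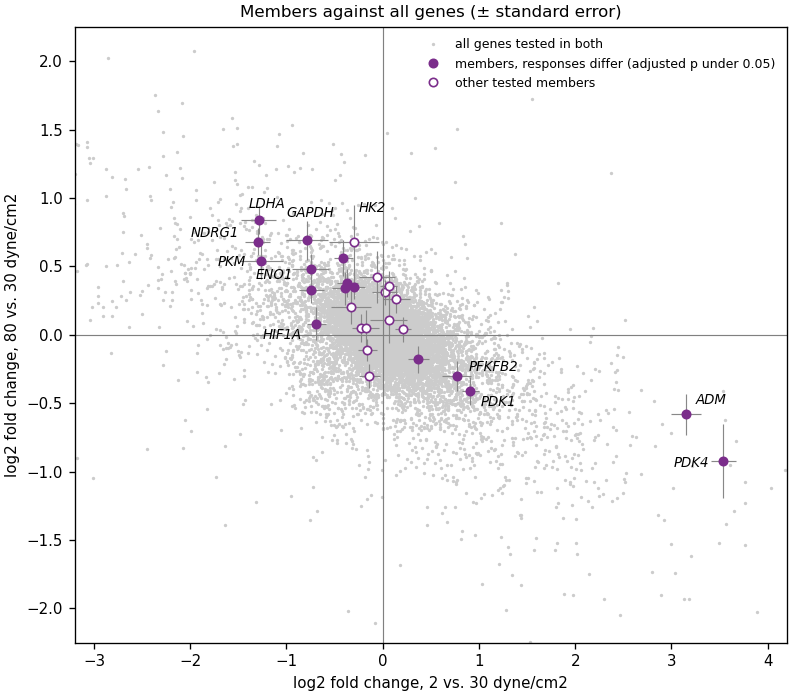
Log2 fold change at 2 dyne/cm2 (horizontal) against that at 80 dyne/cm2 (vertical), with standard errors, for the tested members (purple, filled where the difference between the responses passed the test) over all genes tested in both comparisons (grey, 72 of which lie outside the axes). LDHA, NDRG1, PKM, GAPDH and ENO1 lie in the upper left, and PDK4, ADM, PDK1 and PFKFB2 in the lower right.

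The cultures at 30 dyne/cm2 gave a measure of how far members differed without a change in WSS, possibly on different slides. Between set 2 and set 1, 0 of 28 members were called by edgeR (0.0179% of all genes). An unadjusted p under 0.05 was found for 11 members and for 2146 of 11163 genes. DESeq2 called 4 members and 476 of 11163 genes. Log2 fold changes between the sets that did not pass included -0.64 for PFKFB3, -0.36 for LDHA, -0.33 for NDRG1, -0.31 for HK1 and 0.69 for PDK4. Members that did not overlap between groups numbered 5 above and 7 below under low WSS, where 17.6% and 18.9% of all genes did so, and 8 above and 3 below under supra-high WSS, where 6.23% and 7.92% did.

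Other genes of these pathways were examined with a list of 76, of which 69 had an identifier and 59 were tested in each comparison. Under low WSS, 24 were called (40.7%, 11 up and 13 down), against 25.8% of all genes, and under supra-high WSS, 8 were called (13.6%, 5 up and 3 down), against 8.40%. Without the donor in the model 10 and 0 passed, respectively, as did 11.1% and 0% of all genes. Among 15 further glycolytic and side-branch enzymes, 1 was up- and 5 were down-regulated under low WSS, and 2 were up-regulated under supra-high WSS. PGD, an enzyme of the pentose phosphate pathway, changed in both comparisons, by -0.61 (adjusted p = 0.0356) and 0.53 (adjusted p = 0.0195), and passed in neither without the donor in the model (adjusted p = 0.0873 and 0.564). ENO3, the muscle enolase, was the gene of this group that rose under low WSS (1.41, SE 0.25, adjusted p = 0.0195). FBP1, an enzyme of gluconeogenesis, fell there (-1.32, SE 0.19, adjusted p = 0.0130), a call that was lost without the donor in the model.

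Of 22 other hypoxia-induced genes, 6 were up- and 7 down-regulated under low WSS, and 3 were up- and 1 down-regulated under supra-high WSS. Of all genes, 13.4% were up- and 12.4% down-regulated under low WSS, and 4.36% and 4.04% under supra-high WSS. Without the donor in the model 5 of the 22 passed under low WSS and 0 under supra-high WSS, as did 11.1% and 0% of all genes. ANGPTL4, a secreted inhibitor of lipoprotein lipase that fatty acids also induce, was at 81.2, 60.0 and 37.1 CPM under low WSS against 6.94, 10.2 and 1.33 CPM in set 1 (3.53, SE 0.44, adjusted p = 0.00936). STC2, a secreted glycoprotein, rose as well (2.16, SE 0.36, adjusted p = 0.0174), a call lost without the donor in the model (adjusted p = 0.0628).

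The largest decrease of the list was that of BHLHE40, a transcriptional repressor, from 277, 199.7 and 210.5 CPM in set 1 to 29.5, 43.3 and 22.4 CPM under low WSS (-2.88, SE 0.23, adjusted p = 0.00479). DDIT4, an inhibitor of mTORC1, fell from 78.1, 105 and 87.6 CPM to 27.2, 31.6 and 27.9 CPM (-1.62, SE 0.09, adjusted p = 0.00329). Both genes were up-regulated under supra-high WSS (0.50, adjusted p = 0.0210, and 0.80, adjusted p = 0.00666). VEGFA, the endothelial growth factor, was up-regulated there too (0.96, SE 0.12, adjusted p = 0.00678) and did not pass under low WSS (-0.56, SE 0.29, adjusted p = 0.203).

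**Figure D5:**
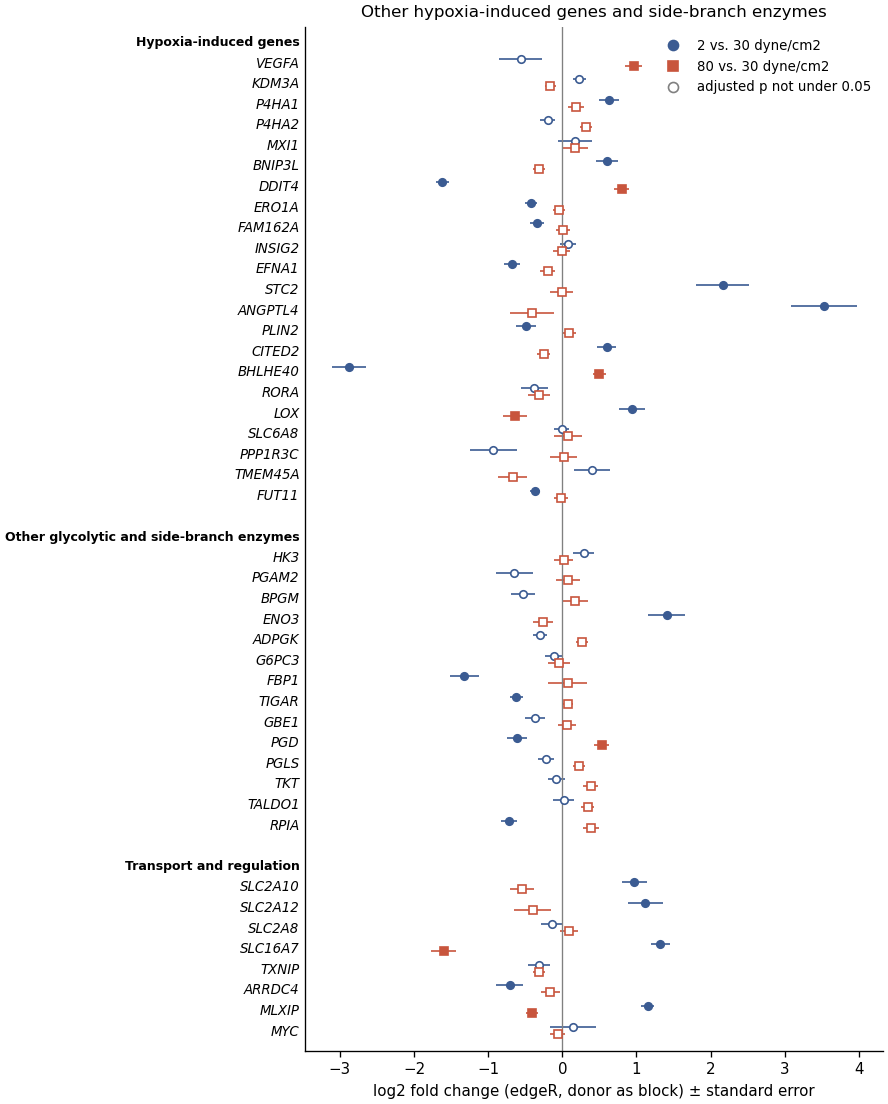
Log2 fold change with its standard error (edgeR, donor as a block) of further hypoxia-induced genes, side-branch enzymes, and transport and regulation genes, at 2 dyne/cm2 (circles) and 80 dyne/cm2 (squares) against 30 dyne/cm2. Filled symbols have an adjusted p under 0.05. ANGPTL4 (3.53) and BHLHE40 (-2.88) mark the ends at 2 dyne/cm2, and SLC16A7 lies at 1.32 and -1.60.

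Among 8 genes of transport and regulation, 4 were up- and 1 was down-regulated under low WSS (13.4% and 12.4% of all genes) and 2 were down-regulated under supra-high WSS (4.04% of all genes). Without the donor in the model 2 and 0 of the 8 passed, as did 11.1% and 0% of all genes. SLC16A7, a monocarboxylate transporter that carries lactate and pyruvate, was at 56.8, 57.9 and 62.2 CPM under low WSS against 27.5, 23.0 and 21.4 CPM in set 1. It fell to 10.6, 5.47 and 12.1 CPM under supra-high WSS, from 24.3, 26.5 and 34.1 CPM in set 2. It thus had the reverse order of LDHA, without overlap in either comparison (1.32, SE 0.13, adjusted p = 0.00665, and -1.60, SE 0.17, adjusted p = 0.00453). MLXIP, a glucose-sensing transcription factor, moved in the same directions (1.15, SE 0.09, adjusted p = 0.00489, and -0.41, SE 0.08, adjusted p = 0.0284).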

How the data were processed

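The authors deposited raw read counts per gene for 12 libraries, 1 table with no normalization. Per the study's methods and processing notes, 100-nt single-end reads were processed with CASAVA 1.8.2, mapped to Sscrofa11.1 with STAR 2.4, multi-mapped reads discarded, and reads over exons counted with featureCounts 1.4.6; use of strand is not given in the sources used here. The counts were tested with edgeR 4.0.16 in R 4.3.3 (TMM, quasi-likelihood test, donor as a block) or DESeq2 1.42.0 as an alternative, after a filter of 1 CPM in 3 of 6 libraries; Benjamini-Hochberg adjustment of p was over all genes tested. The study's text names no donor term. Replicate numbers mark donors by the source names of the samples. After removal of group means, 18 same-donor pairs correlated at 0.61 to 0.86 over 11568 genes and 36 other pairs at -0.55 to -0.17. With 3 libraries per group, removal of the mean itself pushes the other pairs towards negative values. SE is the log2 fold change divided by the square root of F. CPM are counts per 1000000 counted reads, at 29606854 to 41058902 counts per library; they are not set per gene length, since no lengths were given, so levels are not compared between genes. Positions are from the RefSeq annotation of Sscrofa11.1, matched by symbol (14572 of 21153 identifiers have one).

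Members and lists were chosen with earlier results of these data known. Values per library are given for a set of members named in advance (PFKFB3, HK2, LDHA, PDK4, HIF1A, EPAS1, EGLN3, ADM and GAPDH; SLC2A1 had no identifier) and for up to 8 called members with the largest change in each test; of the other pathway genes, up to 8 called genes with the largest change. PGD and VEGFA were added after their values were seen. One gene of the list is counted but not reported here. The procedure was tested on simulated data. Alternatives were no donor term, RLE normalization, DESeq2, other filters, dispersion from 12 libraries, the other control set, a 2-fold threshold and leaving out each donor, and for medians another pseudocount or library size; DESeq2 without donor and library sizes without FN1 and THBS1 were chosen after seeing the data.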

Additional observations from a re-analysis of the deposited data

Results flagged for a closer look

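For 16 members the responses to low and to supra-high WSS differed in the test of the difference itself (log2, response at 2 minus response at 80 dyne/cm2, edgeR with the donor as a block). Lower under low WSS were LDHA (-2.12), NDRG1 (-1.96), PKM (-1.77), GAPDH (-1.46), ENO1 (-1.22), HK1 (-1.07), ALDOC (-0.95), HIF1A (-0.78), GPI (-0.74), ALDOA (-0.73) and PGAM1 (-0.64). Higher were PDK4 (4.43), ADM (3.73), PDK1 (1.33), PFKFB2 (1.08) and PFKM (0.56). The calls of LDHA, PDK4, ADM, GAPDH, NDRG1, PKM and ENO1 held in 10 of 10 alternatives. HIF1A lost its call in 4 (adjusted p up to 0.130), ALDOC in 2 (up to 0.101) and PDK1 in 1 (up to 0.0979). PFKFB2 lost it in 1, with the other control set (0.39, adjusted p = 0.180). HK1, GPI, ALDOA, PGAM1 and PFKM also lost theirs with that set, and PFKM without the donor in the model (adjusted p = 0.0592). EGLN3 was lower at 2 dyne/cm2 and higher at 80 dyne/cm2 in 3 of 3 donors, with a difference of -1.30 on the log2(CPM + 1) scale. It missed the filter, so that in the filtered fit the difference was not tested. Without a filter it was -5.74 (SE 0.89, adjusted p = 7.92e-04), on 0 to 41 counts per library.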

How the results depend on the processing

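With the donor as a replicate block, 11 members were called at 2 dyne/cm2, 6 at 80 dyne/cm2, 16 for the difference between responses and 0 between the sets at 30 dyne/cm2. Without the replicate block the counts were 7, 0, 12 and 0, and over all genes 1244 in place of 2895, 0 in place of 940 and 1746 in place of 4294. With a 2-fold threshold as well the counts were 5, 0 and 10, and over all genes 1078, 246 and 1921. The other set at 30 dyne/cm2 as control gave 0 at 80 dyne/cm2 (26 of all genes) and 10 for the difference (2568 of all genes). Of these 10, 9 were among the 16. The median member difference was then -0.07 in place of -0.15 at 2 dyne/cm2 and 0.07 in place of 0.27 at 80 dyne/cm2. DESeq2 gave 11 at 80 dyne/cm2 (1150 of 11187 genes) and 4 between the sets (476 of 11163). No filter gave 11 (1359 of 16841 genes) and 1 (161 of 16717). Dispersion from 12 libraries gave 17 at 2 (4505 of 11226 genes) and 3 at 80 dyne/cm2 (364 of 11187). Leaving out each donor gave 6 to 9 at 2 dyne/cm2 (6 without donor 1) and 13 to 15 for the difference. At 80 dyne/cm2 it gave 0 to 15 (15 without donor 1, 2 without donor 2, 0 without donor 3). Between the sets it gave 0 to 3 (3 without donor 2). Over all genes these fits gave 1510 to 2008 at 2 dyne/cm2, 1995 to 3375 for the difference and 0 to 445 between the sets. At 80 dyne/cm2 they gave 2080, 371 and 184 genes without donors 1, 2 and 3. The cause of these shifts was not tested.

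Directions turned only for values that had not been called. PFKFB2 and HIF1A, called at 2 dyne/cm2, kept their direction there and turned only at 80 dyne/cm2, where neither was called. With the other control set, PFKFB3 was 0.31 at 2 and -0.45 at 80 dyne/cm2 with a difference of 0.79, HK2 was 0.44 and -0.10 with a difference of 0.53, EPAS1 was 0.04 at 2 and PFKFB2 0.05 at 80 dyne/cm2. Leaving out each donor gave -0.47 to 0.02 for HK2 and -0.25 to 0.18 for EPAS1 at 2 dyne/cm2 (the highest without donor 2), -0.88 to 0.04 for the difference of EPAS1 (the highest without donor 2) and -0.04 to 0.17 for HIF1A at 80 dyne/cm2 (the lowest without donor 3). Of 448 values for single genes under an alternative, 372 kept direction and side of the threshold, 52 lost and 12 gained a call and 12 turned. With 3 donors and 29606854 counts or more per library, genes such as EGLN3 and HK2 are limited by few reads. With the donor as a block, p-values measure the spread of the within-donor responses of 3 pigs, not the spread of levels between pigs.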

Other observations

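Of 9 tested genes for the entry of pyruvate into the mitochondria, the step that PDKs oppose, edgeR called 0 at 2 and 0 at 80 dyne/cm2. Over all genes it called 25.8% and 8.40%. DESeq2 called 0 of the 9 in both, against 3325 of 11226 and 1150 of 11187 genes. An unadjusted p under 0.05 was found for 4 and 2 of the 9, and for 4773 of 11226 and 2921 of 11187 genes. Their median log2 fold change was -0.19 and 0.05. The responses to low and supra-high WSS differed for 3 of the 9 (DLAT, PDHX and PDP1), or 33.3%, against 37.1% of all 11568 genes. Of 5 further genes of the HIF pathway, edgeR called 0 in both comparisons, with 0 at an unadjusted p under 0.05. DESeq2 called 1 of them at 2 dyne/cm2 and 0 at 80 dyne/cm2. The shares over all genes are those given for the 9 genes.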
